A study of Mus musculus with 6 samples.

Results

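The 5 mouse dopamine receptor genes, Drd1 to Drd5, and Sfxn1, the gene next to Drd1 on chromosome 13, were examined in newborn striatum after conditional deletion of Sp9. They were taken from the table by gene identifier, and all 6 were among its 47062 genes. The set was selected on the difference between mutants and controls in these same libraries, in which Drd1 and Sfxn1 stood out, so their differences between genotypes are given as a description and without a test. Of the 6 genes, 4 (Drd1, Drd2, Drd4 and Sfxn1) reached a mean FPKM of at least 0.5 over the libraries and entered the fit across genes, and Drd3 and Drd5 lay below it. FPKM scales the fragments of a gene by transcript length and by library depth.

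Total RNA was sequenced from striatum dissected with the subventricular zone at postnatal day 0. The 3 mutant libraries came from Drd2-Cre;Sp9Flox/Flox mice and the 3 control libraries from Sp9Flox/Flox littermates without Cre. All animals thus carried floxed Sp9, on a mixed background of the strains C57BL/6J, 129S6 and CD1. Sp9 encodes a zinc finger transcription factor, and Cre was driven by regulatory sequence of Drd2, which is itself among the genes described here. The labels do not say how the Drd2-Cre allele was built, and no group carried it without the floxed alleles, so the Cre allele and the loss of Sp9 cannot be told apart. Nothing in the labels says whether a library came from 1 animal, so the spread given below is that between libraries.

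Dopamine reaches the striatum from midbrain neurons and acts through G protein-coupled receptors of separate classes. The D1-like receptors, encoded by Drd1 and Drd5, raise cyclic AMP, in striatal neurons mainly through the G protein subunit encoded by Gnal. The D2-like receptors, encoded by Drd2, Drd3 and Drd4, lower it. Drd1 marks the projection neurons of the direct pathway and Drd2 those of the indirect pathway, and Drd2 and Drd5 are also used by cholinergic interneurons. Sfxn1 encodes a sideroflexin that carries serine into mitochondria for one-carbon metabolism.

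Drd1 (ENSMUSG00000021478) lies on the minus strand of GRCm38 chromosome 13, from 54051183 to 54055705, and Sfxn1 (ENSMUSG00000021474) on the plus strand from 54071869 to 54108342. The genes point away from each other, with 16163 bases between them. Drd2 (ENSMUSG00000032259) spans chromosome 9 from 49340627 to 49408177 on the plus strand. Below are the bases just upstream of the annotated starts of these 3 genes, which hold the bulk of the signal described here and include the neighbours that were both higher in the mutants. They are RefSeq sequences on GRCm38.p6, written 5′ to 3′ on the strand of each gene, and bases covered by exons were left out. Capitals mark the letters GGGCGG or, for the other strand, CCGCCC, the core of the GC box that Sp family proteins are known to bind.
Drd1 (chr13:54055706-54055908, minus strand): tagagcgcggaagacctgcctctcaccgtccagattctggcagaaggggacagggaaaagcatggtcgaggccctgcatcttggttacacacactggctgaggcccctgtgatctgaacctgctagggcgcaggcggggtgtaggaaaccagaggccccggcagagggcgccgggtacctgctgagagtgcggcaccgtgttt
Sfxn1 (chr13:54071595-54071844, plus strand): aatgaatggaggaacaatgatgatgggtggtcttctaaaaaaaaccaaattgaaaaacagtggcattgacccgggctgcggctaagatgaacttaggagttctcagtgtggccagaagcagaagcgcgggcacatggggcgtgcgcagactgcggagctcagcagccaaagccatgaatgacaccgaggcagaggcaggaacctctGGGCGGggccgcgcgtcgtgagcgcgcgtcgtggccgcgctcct
Drd2 (chr9:49340153-49340402, plus strand): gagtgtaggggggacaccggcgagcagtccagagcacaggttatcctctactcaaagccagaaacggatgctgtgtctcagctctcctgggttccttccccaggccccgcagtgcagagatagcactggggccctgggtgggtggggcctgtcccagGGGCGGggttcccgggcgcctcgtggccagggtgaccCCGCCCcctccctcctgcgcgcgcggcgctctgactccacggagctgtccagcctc
The printed Drd1 stretch held no GC box, the Sfxn1 stretch held 1 and the Drd2 stretch 2. Over the whole RefSeq window, from 250 bases before to 50 bases after the start, Drd1 had 1 GC box (just downstream of the start), Sfxn1 2, Drd2 2, Drd4 3 and Drd5 2, and Drd3 had none, with overlapping matches counted. A 2nd annotated start of Drd1 had 1. Of 32851 such windows over the genome, 35.7% held at least 1, so these letters are common. No window of the 6 genes held the TATA box letters TATAAA on either strand, which 13.6% of all windows did.

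The libraries held 16237138 to 19457754 fragments in genes. Mutant libraries had 8.37, 7.93 and 9.67 FPKM of Sp9, and control libraries 20.1, 19.0 and 17.3 FPKM. Markers shared by striatal projection neurons summed to 1950 to 2150 FPKM in the mutants and 2090 to 2205 FPKM in the controls, with all 12 above the filter. Control replicate 3 was the only library with Y-linked transcripts (Eif2s3y at 64.6 FPKM, at most 0.188 FPKM in the others). With limma on log2(FPKM + 0.5), 10 of 16666 genes (0.06%) passed a Benjamini-Hochberg adjusted p of 0.05. Drd1, Drd2, Drd4 and Sfxn1 were not among them, and Drd3 and Drd5, below the filter, were not tested in this fit.

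Among the D1-like receptors, Drd1 carried nearly all of the signal. In mutant replicates 1 to 3 it had 37.7, 42.7 and 37.6 FPKM, and in control replicates 1 to 3 it had 27.0, 18.8 and 25.3 FPKM. The lowest mutant thus stood above the highest control, and control replicate 2 was the lowest of all. These values rest on 1744 to 2352 fragments per mutant library and 973 to 1361 per control library. Drd1 averaged 39.3 ± 2.91 FPKM in mutants and 23.7 ± 4.31 FPKM in controls (SD, n = 3 each), a 1.66-fold ratio of means. On the log2(FPKM + 0.5) scale the difference was 0.73 ± 0.14 (SE of the fit). Without control replicate 2 it was 0.58, the smallest value with any library left out. Of 10553 genes with a mean of at least 5 FPKM, 227 had a larger upward difference than Drd1.

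In bulk tissue, more cells that express a gene and more RNA per cell cannot be told apart, and this holds for Drd1 as for the genes below. The authors' count columns, which scale each library by its own factor and do not divide by transcript length, gave the same picture for Drd1, with groups that did not overlap and mutants above controls, as for 5.46% of the 16125 genes tested on these columns. The log2 difference was 0.74 for Drd1 and 0.44 for Sfxn1 there.

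Drd5 (ENSMUSG00000039358), the other D1-like receptor, was near the limit of detection. It lies on chromosome 5 from 38319367 to 38322518 on the plus strand and overlaps the antisense gene Gm26560, which was listed at 0 in every library. Mutant replicates 1 to 3 had 0.629, 0.586 and 0.359 FPKM of Drd5, and control replicates 1 to 3 had 0.348, 0.342 and 0.400 FPKM. Mutant replicates 1 and 2 stood above all controls, but mutant replicate 3 lay within their range, so the groups overlapped. Over the libraries this comes to 80 fragments in mutants and 52 in controls. Per fragment sequenced the ratio was 1.497, with a 95% interval of 1.04 to 2.17 that covers counting error only and not the spread between libraries.

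The D2-like receptors were led by Drd2, which did not separate the genotypes. Its level was 45.1, 45.9 and 42.1 FPKM in mutant replicates 1 to 3, against 48.5, 42.05 and 44.5 FPKM in control replicates 1 to 3. The ranges nearly coincided, and the mutants lay within that of the controls. The mean was 44.4 ± 1.97 FPKM in mutants and 45.0 ± 3.25 FPKM in controls (SD, n = 3 each), from 923 to 1188 fragments per mutant library and 977 to 1157 per control library. The log2 difference of -0.02 had a 95% interval of -0.18 to 0.14.

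The list of indirect pathway genes, whose cells Drd2 marks, includes Sp9 itself. It was drawn up with earlier results of these data known, so its values are a description and nothing is read from their contrast with all genes. Without Drd2 and Sp9 it had 9 tested members, of which 2 (Adora2a, an adenosine receptor gene, and Grik3, a kainate receptor subunit gene) fell past an adjusted p of 0.05 with limma, which 0.024% of all genes did. The median log2 difference of those 9 was -1.16, against 0.00 for all genes. Among them only Six3, a transcription factor gene, had an estimate above that of Drd2, at 0.07. Adora2a had 3.95, 5.36 and 3.02 FPKM in mutant libraries, and 47.6, 41.1 and 44.1 FPKM in control libraries. In the controls it was thus close to Drd2, and in the mutants far below it.

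Drd3 (ENSMUSG00000022705; chromosome 16, 43754026 to 43822932, plus strand), the receptor of the islands of Calleja in the ventral striatum, was the least expressed of the 6. Mutant replicates 1 to 3 had 0.192, 0.228 and 0.227 FPKM, and control replicates 1 to 3 had 0.166, 0.122 and 0.0452 FPKM. All mutants stood above all controls, yet this amounts to 5, 6 and 5 fragments in mutant libraries and to 4, 3 and 1 in control libraries. The ratio per fragment sequenced was 1.95, with a counting interval (95%) of 0.786 to 5.25. On log2(FPKM + 0.5) without a filter the difference was 0.23 ± 0.09 (SE; 95% interval 0.01 to 0.46). That fit does not take account of the few fragments.

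Drd4 (ENSMUSG00000025496; chromosome 7, 141292006 to 141296464, plus strand), a D2-like receptor best known from cortex and retina, had 0.645, 0.596 and 0.636 FPKM in mutant libraries and 0.573, 1.13 and 0.441 FPKM in control libraries. The mutants lay within the range of the controls, which was set by control replicate 2 with 20 fragments against 10 and 7 in the other controls. Means were 0.626 ± 0.0261 FPKM in mutants and 0.713 ± 0.363 FPKM in controls (SD, n = 3 each). The log2 difference was -0.07 ± 0.24 (SE), and without control replicate 2 it was 0.16.

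Sfxn1, the neighbour of Drd1, was also higher in the mutants. Its level was 35.8, 40.3 and 36.7 FPKM in mutant replicates 1 to 3, against 24.6, 27.8 and 30.6 FPKM in control replicates 1 to 3. The groups did not overlap, and the gap between them was smaller than for Drd1. Averages were 37.6 ± 2.36 FPKM in mutants and 27.7 ± 3.02 FPKM in controls (SD, n = 3 each), a 1.36-fold ratio. The log2 difference was 0.44 ± 0.09 (SE), from 1415 to 1832 fragments per mutant library and 1030 to 1199 per control library.

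**Figure D1:**
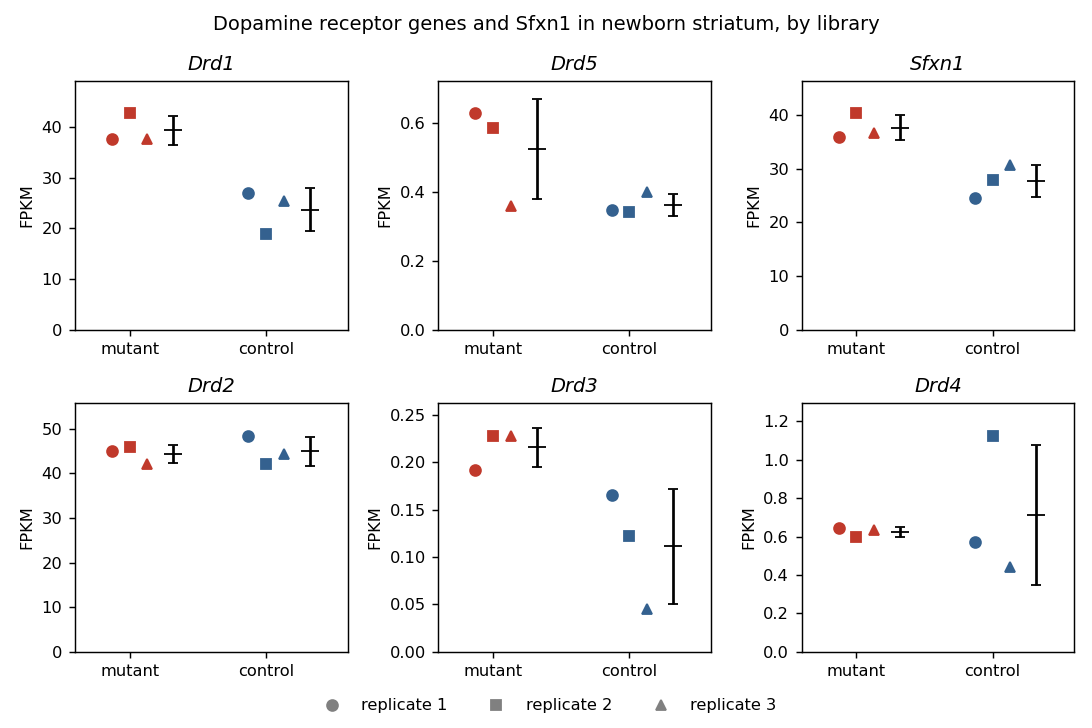
FPKM of each of the 6 genes in every library, with mutant libraries at left in red and control libraries at right in blue, symbols for the replicate number, and the mean ± SD of each group in black (each panel has its own vertical axis from 0). Drd1 and Sfxn1 sit at 37.6 to 42.7 and 35.8 to 40.3 FPKM in the mutants, above every control, while Drd2 lies between 42.05 and 48.5 FPKM in both genotypes and Drd3, Drd4 and Drd5 stay at or under 1.13 FPKM.

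Of the 6 genes, 3 (Drd1, Sfxn1 and the sparse Drd3) thus had mutants above controls with no overlap, 0 had them below, and 3 overlapped. Among the 16666 genes tested, 5.32% had mutants above controls without overlap and 6.04% had them below. Because the genes were chosen with this comparison known, nothing is read from that contrast of counts.

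The order of levels in FPKM differed little between genotypes. In the mutants Drd2 was highest, then Drd1, Drd4, Drd5 and Drd3. The same order held in the controls. In the mutants the ranges of Drd1 (37.6 to 42.7 FPKM) and Drd2 (42.1 to 45.9 FPKM) overlapped, as did those of Drd4 (0.596 to 0.645 FPKM) and Drd5 (0.359 to 0.629 FPKM). In the controls, neighbours in that order did not overlap. Sfxn1 and Drd1 overlapped in either genotype.

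Within each library, Drd1 stood closer to Drd2 in the mutants than in the controls. Drd1 was 0.836, 0.930 and 0.892 times Drd2 in mutant replicates 1 to 3, and 0.556, 0.447 and 0.569 times Drd2 in control replicates 1 to 3. In FPKM, Drd2 was thus the higher of the pair in all 6 libraries, but this order rests on the transcript length used. With fragments divided by merged exon bases (3628 for Drd1, 2547 for Drd2), Drd1 was 1.23, 1.39 and 1.33 times Drd2 in mutant replicates 1 to 3, and 0.826, 0.664 and 0.854 times in control replicates 1 to 3. The log2 difference of Drd1 from Drd2 averaged -0.17 ± 0.08 in mutants and -0.93 ± 0.19 in controls (SD, n = 3 each), a shift of 0.75. This shift does not depend on how a library was scaled.

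The receptor genes together summed to 85.1 ± 4.56 FPKM in mutants and 69.9 ± 7.08 FPKM in controls (SD, n = 3 each). Drd1 made up 46.2 ± 1.36% of that sum in mutants and 33.7 ± 3.14% in controls. Drd2 made up 52.2 ± 1.27% in mutants and 64.5 ± 2.43% in controls, although its own level hardly differed. Like the order of Drd1 and Drd2, these shares rest on the transcript length used for FPKM. Drd3, Drd4 and Drd5 together stayed at a few percent in either genotype.

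**Figure D2:**
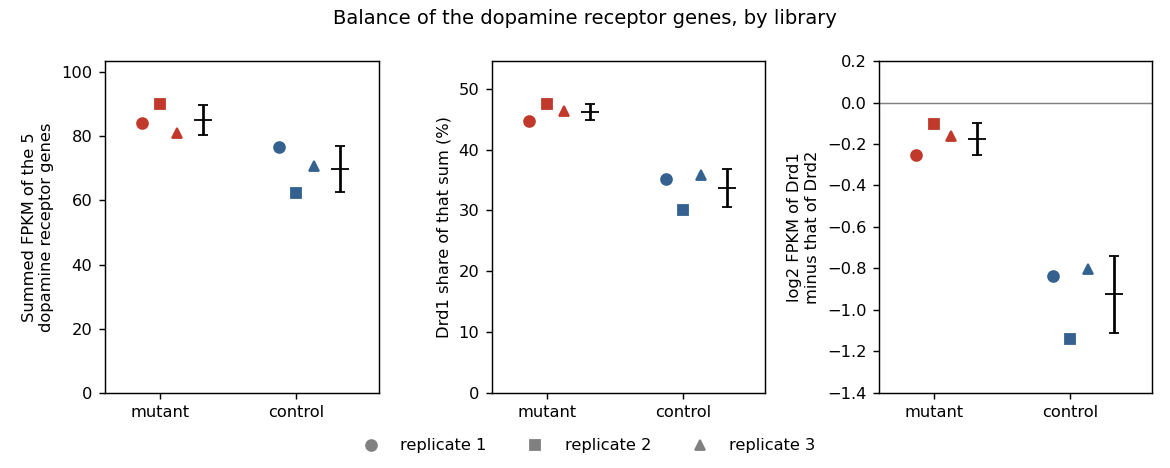
Summed FPKM of the 5 dopamine receptor genes, the share of Drd1 in that sum in percent, and the log2 difference of Drd1 from Drd2, for each library (mutants in red at left, controls in blue at right, mean ± SD in black). Drd1 makes up 44.7 to 47.4% of the sum in mutant libraries and 30.1 to 35.8% in control libraries.

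Drd1 and Sfxn1 kept a near constant ratio in the mutants, where both were highest in replicate 2, and a varying one in the controls. Drd1 was 1.05, 1.06 and 1.02 times Sfxn1 in mutant replicates 1 to 3, against 1.10, 0.675 and 0.827 times in control replicates 1 to 3. Among controls Drd1 was lowest in replicate 2, whereas Sfxn1 was lowest in replicate 1, where Drd1 was highest. Likeness over the 6 libraries was measured as the root mean square difference between mean-centred log2(FPKM + 0.5) profiles, among 9081 other named genes with a mean of at least 5 FPKM. The difference between Drd1 and Sfxn1 was 0.25, by which Sfxn1 ranked 43rd from Drd1 and Drd1 ranked 3328th from Sfxn1.

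Nearest to Drd1 were Zdbf2, an imprinted gene (root mean square difference 0.10), Slc15a4, a peptide and histidine transporter gene (0.12), Tmem178, which encodes a membrane protein (0.13), Cntnap5b, of the contactin-associated protein family (0.14), and Klhl29, of the kelch-like family (0.14). Zdbf2 had 20.02, 19.7 and 17.7 FPKM in mutant libraries and 12.7, 9.995 and 11.1 FPKM in control libraries, with its lowest value in control replicate 2 as for Drd1. Nearest to Sfxn1 were Tmem141, a membrane protein gene (0.07), the expressed sequence AI413582 (0.08), Hs3st2, a heparan sulfate sulfotransferase gene (0.09), Hnmt, which inactivates histamine (0.09), and Me1, malic enzyme (0.09). Tmem141 had 6.92, 7.24 and 7.24 FPKM in mutants and 4.13, 5.53 and 5.62 FPKM in controls, with control replicate 1 the lowest as for Sfxn1. Over 6 libraries such nearness rests largely on the difference between genotypes and is a description only.

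**Figure D3:**
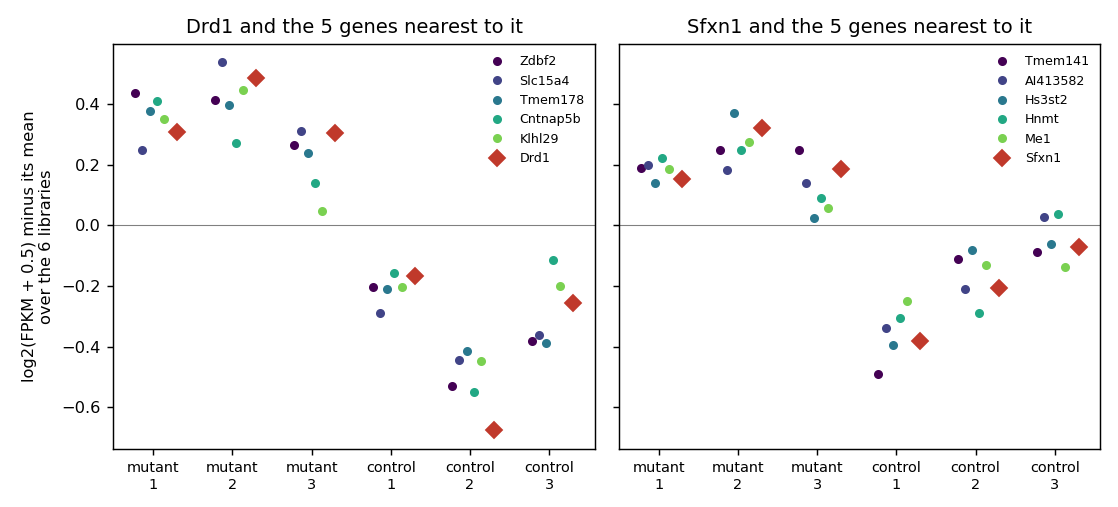
Mean-centred log2(FPKM + 0.5) in each library for Drd1 (left) and Sfxn1 (right), as red diamonds, and for the 5 genes with the smallest root mean square difference from each, as circles. Drd1 and its nearest genes are lowest in control replicate 2, while Sfxn1 is lowest in control replicate 1.

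Genes further along chromosome 13 had smaller differences than Drd1. Within 500 kb of Drd1, 6 genes besides Sfxn1 were tested, and none passed an adjusted p of 0.05 with limma. With an unadjusted p under 0.05 there was 1, Thoc3, against 5.65% of all genes. On the authors' count columns its unadjusted limma p was 0.381. The 4 named coding genes besides Sfxn1 lay on the same side of Drd1, from 136.4 to 448.1 kb away, with log2 differences from -0.14 to 0.32. Hrh2, a histamine receptor gene, had 0.578, 0.611 and 0.597 FPKM in mutants and 0.364, 0.557 and 0.462 FPKM in controls, a low level that reached 33 fragments at most. Cplx2, which encodes a complexin of synaptic vesicle release, had 65.6, 82.4 and 67.8 FPKM in mutants and 48.5, 61.4 and 63.3 FPKM in controls, and the groups did not overlap (log2 difference 0.32 ± 0.13 (SE), limma adjusted p = 0.858). Simc1 had a log2 difference of 0.23 ± 0.10 (SE) and Thoc3, of the THO complex of mRNA export, one of -0.14 ± 0.05 (SE). For all genes tested the median difference was 0.00.

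Around Drd2, whose regulatory sequence drives Cre, none of 6 tested genes within 500 kb passed an adjusted p of 0.05 with limma. Only 1, Ttc12, had an unadjusted p under 0.05, against 5.65% of all genes. Ttc12, which encodes a tetratricopeptide repeat protein and lies 28.8 kb beyond the end of Drd2, had 1.02, 1.05 and 1.03 FPKM in mutant replicates 1 to 3, and 0.502, 0.812 and 0.361 FPKM in control replicates 1 to 3. Every mutant stood above every control, on 57 to 78 fragments in mutants and 24 to 54 in controls (log2 difference 0.56 ± 0.19 (SE), limma adjusted p = 0.858). Ankk1, a kinase gene 7 kb beyond Drd2 and between it and Ttc12, lay under the filter and was looked up after its values were seen. It had 3, 6 and 3 fragments in mutant libraries and 11, 9 and 16 in control libraries, a ratio per fragment sequenced of 0.324 with a counting interval (95%) of 0.154 to 0.638. That interval covers counting error only. Ankk1 was picked for its values and Ttc12 did not pass the adjusted threshold, so no pattern around Drd2 is read from them. Zw10, Usp28, Htr3a and the cell adhesion gene Ncam1 had log2 differences between -0.09 and 0.03.

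**Figure D4:**
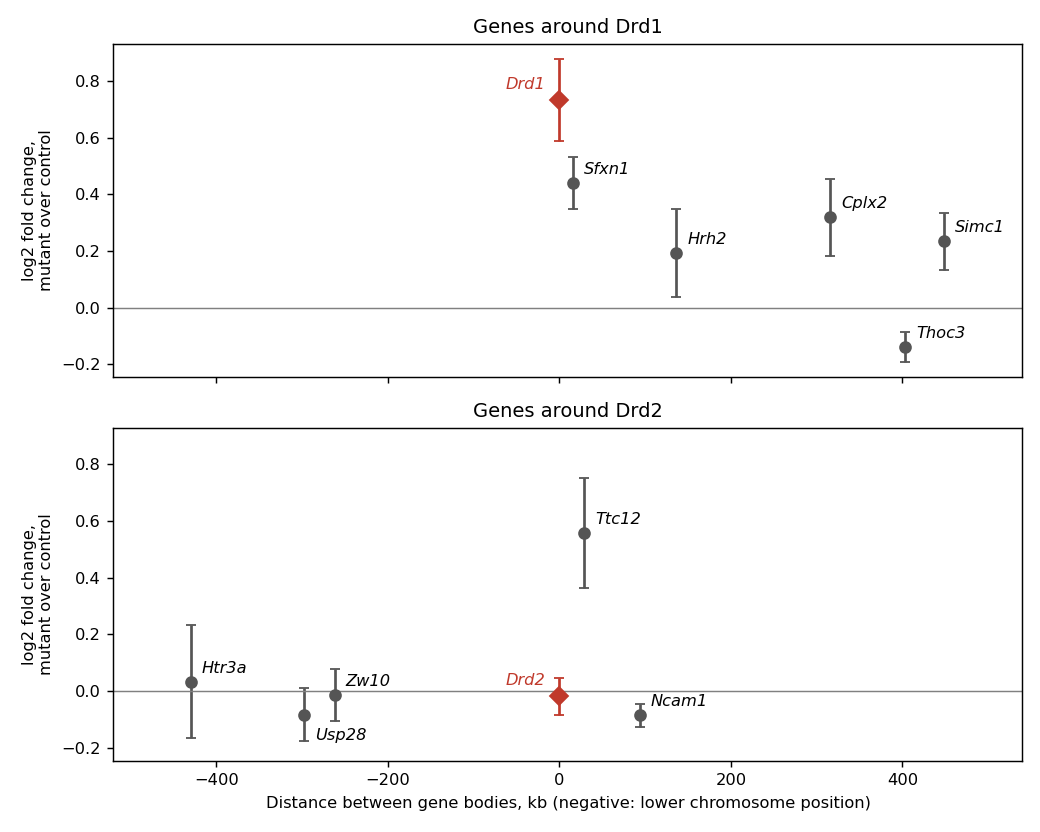
Log2 fold change of mutant over control, on log2(FPKM + 0.5) with the SE of the limma fit as bars, against the distance in kb between gene bodies, for named coding genes within 500 kb of Drd1 (top) and Drd2 (bottom). Drd1 stands at 0.73 and Sfxn1 at 0.44, and around Drd2 the gene set apart from the rest is Ttc12 at 0.56.

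Near the less expressed receptors, no gene within 500 kb passed the adjusted threshold either (7 genes tested around Drd3, 35 around Drd4 and 9 around Drd5). At an unadjusted p under 0.05 (5.65% of all genes) there were 0 around Drd3 and Drd5, and 3 around Drd4 (Tspan4 higher in mutants, Ptdss2 and Lrrc56 lower). On the authors' count columns their unadjusted p was 0.0877 for Tspan4, 0.210 for Ptdss2 and 0.141 for Lrrc56, so none of these 3 stayed under 0.05. Deaf1, whose gene body ends 0.7 kb from that of Drd4, had a log2 difference of -0.04 at a far higher level than Drd4 (48.9 ± 1.07 FPKM in mutants and 50.5 ± 2.04 FPKM in controls, SD, n = 3 each). The counting of strand is not given in the sources used here. Drd1, Drd2, Drd4 and Sfxn1 overlap no other annotated gene.

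Downstream of the receptors, none of the tested genes in the signalling lists passed an adjusted p of 0.05 with limma. With the sideroflexin and one-carbon list and the named coding genes around the receptors, leaving out Sfxn1, they came to 125, of which 12 had an unadjusted p under 0.05, against 5.65% of all genes tested. The list of G proteins and cyclase had 12 members, of which 4 had an unadjusted p under 0.05 and were the lower in mutants (2.99% of all genes), and 0 were the higher (2.65% of all genes). These 4 were Gng7, Gnao1, Gnal and Gnas. Gng7, the gamma subunit that partners the D1-coupled G protein in striatum, had 181, 187 and 175 FPKM in mutants and 237, 218 and 234 FPKM in controls. No mutant reached a control, and the log2 difference was -0.34 ± 0.05 (SE; limma adjusted p = 0.289). Gnal, which encodes that alpha subunit, averaged 172 ± 10.1 FPKM in mutants and 192 ± 4.70 FPKM in controls (SD, n = 3 each), a log2 difference of -0.16 ± 0.05 (SE; limma adjusted p = 0.833). Gnao1, a subunit that D2-like receptors use, had a log2 difference of -0.14 ± 0.04 (SE). For Gnas the difference was -0.12 on FPKM but 0.08 on the authors' count columns, so its sign depends on the measure. Adcy5, the main striatal adenylyl cyclase, had 25.4 ± 3.34 FPKM in mutants and 24.6 ± 1.82 FPKM in controls (SD, n = 3 each). The list's median log2 difference was -0.02.

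Effectors of cyclic AMP and phosphodiesterases had 13 tested members and a median of -0.07. Only Ppp1ca, a catalytic subunit of protein phosphatase 1, had an unadjusted p under 0.05, with a log2 difference of -0.09 ± 0.03 (SE). The others with the smallest p were the phosphodiesterase gene Pde7b (-0.23), Prkaca of protein kinase A (0.07) and Arpp19 (-0.06). Among 10 genes of receptor desensitization the median was -0.03, and Grk3, a receptor kinase gene, was the 1 with an unadjusted p under 0.05. Grk3 had 8.09, 9.81 and 9.57 FPKM in mutants and 8.13, 6.15 and 6.62 FPKM in controls, so mutant replicate 1 lay within the range of the controls (log2 difference 0.37 ± 0.13 (SE), limma adjusted p = 0.847). Grk2 (-0.08), Arrb1 (-0.07) and Rgs2 (-0.11) followed. The 9 genes of receptor binding partners, with a median of -0.02, had none at an unadjusted p under 0.05, and Akt1, Gsk3b, Epb41l1 and Caly lay between -0.06 and 0.06.

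Dopamine synthesis and handling had 9 tested genes of 12 and a median of -0.01, with none at an unadjusted p under 0.05. Spr, which makes the cofactor of tyrosine hydroxylase, had a log2 difference of 0.16, the monoamine oxidase gene Maob 0.25 and Th 0.38. Th, the rate-limiting enzyme of dopamine synthesis, had 6.80, 7.16 and 3.67 FPKM in mutants and 4.11, 3.63 and 5.10 FPKM in controls, and the groups overlapped. Of 8 markers of midbrain dopamine neurons, 3 passed the filter (Th, the vesicular transporter gene Slc18a2 and the transcription factor gene Nr4a2). Slc18a2 had 3.68, 3.47 and 3.55 FPKM in mutants and 4.08, 2.83 and 4.35 FPKM in controls, and Nr4a2 ran from 0.156 to 3.37 FPKM in mutants and 0.183 to 1.27 FPKM in controls. Pitx3 was listed at 0 in all 6 libraries, and the dopamine transporter gene Slc6a3 held at most 7 fragments. The list summed to 9.03 to 14.1 FPKM in mutants and 7.88 to 9.80 FPKM in controls.

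The other sideroflexin genes had smaller differences than Sfxn1. Sfxn2, Sfxn3, Sfxn4 and Sfxn5 had log2 differences of -0.03, -0.06, -0.16 and 0.07. Without Sfxn1, 15 genes of this family and of mitochondrial one-carbon metabolism had a median of 0.00 and none passed an adjusted p of 0.05 with limma, while 1, Mthfd2, had an unadjusted p under 0.05. Mthfd2, a mitochondrial folate enzyme gene, had 7.39, 6.85 and 7.09 FPKM in mutants and 9.54, 8.31 and 9.63 FPKM in controls, lower in every mutant (log2 difference -0.34 ± 0.08 (SE), limma adjusted p = 0.686). Slc25a32, the mitochondrial folate carrier gene, and Shmt2, the mitochondrial serine hydroxymethyltransferase gene, had log2 differences of 0.19 and -0.12.

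**Figure D5:**
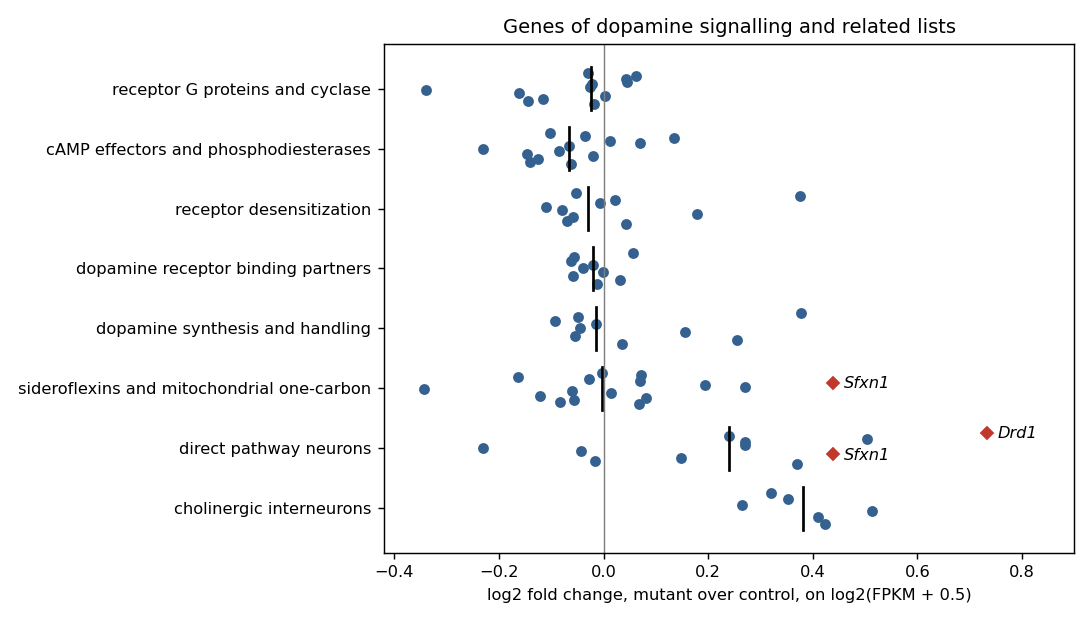
Log2 fold change of mutant over control for each tested gene (points, spread vertically for legibility) in lists of dopamine signalling, sideroflexin and cell type genes, with Drd1 and Sfxn1 as red diamonds and the median of the other genes of a list as a black bar. The medians of the signalling lists lie between -0.07 and 0.00, and those of direct pathway and cholinergic genes at 0.24 and 0.38.

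Markers of the cells that use these receptors stand here beside Drd1. In the direct pathway list, 9 genes besides Drd1 and Sfxn1 were tested, with a median log2 difference of 0.24, 6 estimates above 0 and none past an adjusted p of 0.05 with limma. At an unadjusted p under 0.05, 2 (Pdyn and Tmem158) were higher in mutants (2.65% of all genes) and 1 (Isl1) lower (2.99% of all genes). Isl1, with the smallest p of these, had 53.3 to 55.9 FPKM in mutants and 61.6 to 68.4 FPKM in controls, without overlap (log2 difference -0.23 ± 0.05 (SE)). Pdyn, the dynorphin precursor, had 27.1, 25.9 and 19.7 FPKM in mutants and 19.6, 13.7 and 17.6 FPKM in controls, and like Drd1 it was lowest in control replicate 2. Slc35d3, which is needed for Drd1 to leave the endoplasmic reticulum in mice, had 20.7, 21.3 and 16.9 FPKM in mutants and 18.2, 14.9 and 15.3 FPKM in controls, with groups that overlapped. Tac1, the substance P precursor, had 277, 215 and 271 FPKM in mutants and 243, 268 and 256 FPKM in controls, with overlap. The direct list as a whole, with Drd1 and Sfxn1 counted in, summed to 591 to 627 FPKM in mutants and 539 to 570 FPKM in controls. Drd1, Sfxn1 and the rest of the list were chosen with earlier results of these data known, so nothing is read from its counts. Without Drd1 and Sfxn1 the sums of mutants and controls overlapped.

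Cholinergic interneurons use Drd2 and Drd5, and all 6 of their markers had estimates above 0, with a median of 0.38 and none past an adjusted p of 0.05 (limma). Lhx8, a transcription factor gene of these cells, was the 1 with an unadjusted p under 0.05, higher in mutants (2.65% of all genes). The 6 markers summed to 20.8 to 29.6 FPKM in mutants and 13.1 to 19.5 FPKM in controls, without overlap. Chat, which makes acetylcholine, had 0.787, 1.33 and 0.521 FPKM in mutants and 0.455, 0.408 and 0.927 FPKM in controls, and overlapped. Cortical glutamatergic markers, whose cells in part express Drd1, summed to 80.5, 58.8 and 97.5 FPKM in mutant replicates 1 to 3 and 64.0, 60.8 and 50.3 FPKM in control replicates 1 to 3. These sums overlapped, with mutant replicate 2 within the range of the controls. Of 8 such genes, 7 were tested, with a median log2 difference of 0.60 and none at an unadjusted p under 0.05 (limma). Sums for astrocytes (80.2 to 95.8 FPKM in mutants, 75.4 to 97.0 FPKM in controls), the oligodendrocyte lineage (56.8 to 80.1 and 58.6 to 78.7 FPKM), microglia (15.5 to 16.7 and 14.8 to 15.6 FPKM) and vessel cells (45.2 to 50.7 and 45.1 to 52.9 FPKM) overlapped between mutants and controls. The part of these cell types in the difference of Drd1 and Sfxn1 was not tested.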

How the data were processed

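The authors deposited 1 table with an FPKM and a count column per library, per the file headers. Per the submitters' processing notes, TopHat, Cufflinks 2.1.1 and GRCm38.p4 were used. Annotation, strand and multimapping settings: not given in the sources used here. The deposited count columns are not whole and were treated as a signal, here called scaled counts. In each library 97.6 to 97.9% of values over 0.01 were whole multiples of a step (tolerance 0.1), and dividing by it gave fragments (16237138 to 19457754 per library). No count test was run.

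Symbols (46483 of 47062 identifiers matched) and positions came from GENCODE M21 on GRCm38, and promoter windows from RefSeq. Genes averaging 0.5 FPKM or more entered limma 3.58.1 (R 4.3.3) as log2(FPKM + 0.5), with a variance trend and p two-sided and adjusted by Benjamini-Hochberg over 16666 genes. Differences of Drd3 and Drd5, below that filter, come from fragments or from the fit without a filter. Fold changes on this scale understate those of low genes. Intervals on fragment ratios are Clopper-Pearson intervals and cover counting error only. The steps were tested on simulated data.

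Members and lists were chosen with earlier results of these data known. From each signalling list, the text names genes past the threshold or else up to 4 with the smallest p, and further genes for the role they have. 1 item that this rule names is not reported here. The alternatives were other pseudocounts and filters, quantile and median-ratio scaling, scaled counts, robust limma, the replicate number as a block and leaving out each library.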

Additional observations from a re-analysis of the deposited data

How the results depend on the processing

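The log2 differences of Drd1 and Sfxn1 kept their direction in each alternative run, from 0.58 to 0.83 for Drd1 and 0.36 to 0.51 for Sfxn1 with 1 library left out. Drd2 ran from -0.07 to 0.04, Drd4 from -0.23 to 0.16 and the shift of Drd1 against Drd2 from 0.64 to 0.81. Drd5 gave 0.24 on FPKM without a filter and 0.47 on scaled counts with and without the replicate block. Genes past the threshold numbered 10 in all, 5 with the replicate block, 23 on scaled counts, 35 on scaled counts with the replicate block (added after seeing the data) and 12 to 23 with 1 library left out. The cause was not tested. Of the 125 genes of the signalling and one-carbon lists and around the receptors (119 to 128 under other filters and measures), 0 passed with limma in every fit, and 12 had an unadjusted p under 0.05 (2 to 12 with 1 library left out, the fewest without control replicate 3). Deviations from the group means had correlations of 0.00, 0.04 and 0.04 between same-numbered libraries, and of -0.07 to 0.03 between the others. With 3 libraries per group, such small values cannot decide whether the numbers pair the libraries. The block, which in a balanced design cannot move a mean difference, gave Drd1 0.73 ± 0.16 and Sfxn1 0.44 ± 0.08 (SE). Drd3, Drd4 and Drd5 are limited by depth.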
